A study of Mus musculus with 12 samples.

Results

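The joints of arthritic mice that had run on a treadmill were compared with the joints of mice given the vehicle, which did not run. The comparison took 8 of the 12 libraries of the study. The AREx group (n = 4) was made up of SKG/Jcl mice given 20 mg of mannan and then exercised on a treadmill at low intensity. The Sedentary group (n = 4) was made up of SKG/Jcl mice given PBS, without running. The other 4 libraries, from mice given the same mannan and no treadmill (Mannan-only), entered the fit and are set beside a result in places. Every group carried the SKG background, a mutation of the T cell receptor kinase gene Zap70, so no library is from a mouse without it. The AREx group differed from the Sedentary group by both mannan and running, and in this comparison the 2 cannot be told apart. The sources used here give neither age, sex nor length of training, nor whether each library came from a separate mouse, so p-values measure the spread between these libraries.

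The tissue was the synovial membrane together with the fat pad, from which polyadenylated RNA was sequenced. The synovial membrane is a thin lining of macrophages and lubricin-making fibroblasts over a looser layer with vessels, nerves, mast cells and fat. Mannan, a sugar of the yeast cell wall, starts arthritis in SKG mice through self-reactive T cells, among which those making interleukin 17 are central, and the swollen membrane that forms can erode cartilage and bone. Defining genes of the labelled cells were present in both groups. Prg4, the lubricin of lining fibroblasts, averaged 5914 TPM in AREx and 3125 TPM in Sedentary, and Adipoq, the adiponectin of fat cells, averaged 249 TPM in AREx and 2544 TPM in Sedentary. Because these are bulk samples, fewer cells of a type and less RNA per cell cannot be told apart in any result below.

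Total counts ran from 12439229 to 17650156 in AREx and from 13459509 to 17248088 in Sedentary. The AREx libraries were less alike than the Sedentary libraries. The median distance of a gene from the mean of the other 3 libraries of its group was 0.271 to 0.496 on the log2 scale in AREx and 0.107 to 0.202 in Sedentary. AREx 1 and AREx 4 held more reads from short genes, with a median log2 ratio to the Sedentary mean of 0.71 and 0.41 in the 2857 shortest genes tested, against -0.13 and -0.12 in AREx 2 and AREx 3. AREx 2 and AREx 4 held skeletal muscle transcripts. Sedentary 2 stood apart in genes of the lining fibroblasts. Where a named gene's call depended on these libraries, the value without them is given. List counts without them are given only in part. For example, 2 programmed cell death genes were lower without AREx 2, and 1 with all libraries.

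The difference between the groups was broad. Of 14278 genes, 3862 were higher and 3391 were lower in AREx than in Sedentary at an adjusted p under 0.05, which is 50.8% of the genes tested, 27% higher and 23.7% lower. By over 2-fold, 2186 were higher and 1789 were lower, and by over 16-fold 240 were higher and 57 lower. The 4 AREx and 4 Sedentary libraries did not overlap for 22.7% of genes in the higher direction and 22.5% in the lower direction. The median log2 fold change over all genes tested was 0.05. A count of list members is to be read against these shares. The library kit named in the labels does not mark strand, and 4328 of the genes tested overlap another gene, from whose reads theirs cannot be told apart. Among the genes given below and in the closing observations these include Prg4, Ptx3, C2, G0s2, Mgll, Cxcl16, Ciita, Prtn3, Cx3cr1, Mzb1, Adamts4, Timp1, Timp3, Timp4, Podn, Runx2, Plin4, Srebf1, Ucp2, Cdh19, Slc16a3, Mki67, Bcl2, Alas2, Clock, Dbp, Nr1d1, Ppargc1a, Junb, Clec9a, Acsm5 and Sptbn5. The largest rise with a level of at least 5 CPM was that of Tnn, the tenascin W gene (ENSMUSG00000026725, chromosome 1, 159912599 to 159981150, GRCm39), which had 232, 731, 712 and 362 CPM in the AREx libraries, against 0.289, 0.579, 0.445 and 0.234 CPM in the Sedentary libraries (log2 fold change 10.34, SE 0.51, adjusted p = 1.87e-07). The largest fall was that of the itch receptor family member Mrgprg (ENSMUSG00000050276, chromosome 7, 143317447 to 143320730), which had 0.363, 1.9, 0 and 2 CPM in the AREx libraries, against 128, 52, 111 and 72.1 CPM in the Sedentary libraries (log2 fold change -6.32, SE 0.66, adjusted p = 9.24e-06). Both rankings took only genes whose groups do not overlap, so the lack of overlap in these genes was fixed by the choice. Without AREx 2 and AREx 4 the log2 fold change of Mrgprg was -9.04.

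**Figure D1:**
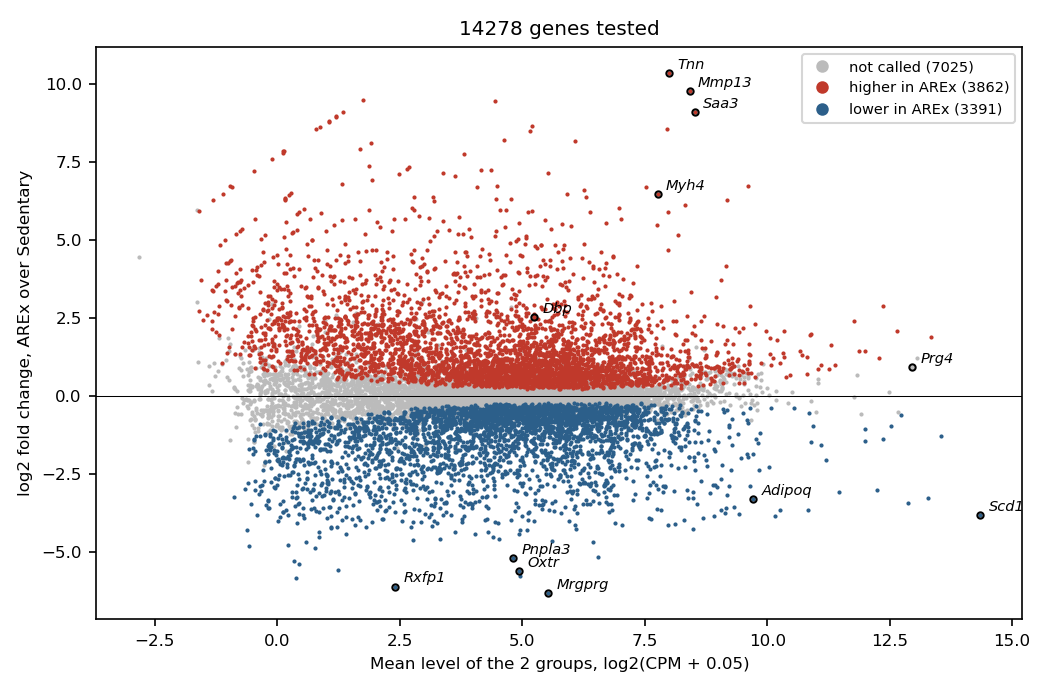
Each point is 1 of 14278 genes. The x axis is the mean level of the AREx and Sedentary groups as log2(CPM + 0.05), the y axis is the log2 fold change of AREx over Sedentary, and colour gives the call at an adjusted p under 0.05: 3862 genes higher (red), 3391 lower (blue) and 7025 not called (grey). Circles mark genes named in the text, from Tnn at 10.34 to Mrgprg at -6.32.

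Saa3 (ENSMUSG00000040026, chromosome 7, 46361422 to 46365124, GRCm39) is an acute phase apolipoprotein made locally by macrophages, fibroblasts and fat cells. Its rise was among the 5 largest of genes with a level of at least 5 CPM whose groups do not overlap. It had 1661, 284, 563 and 428 CPM in the AREx libraries, against 1.5, 1.23, 0.816 and 1.79 CPM in the Sedentary libraries (log2 fold change 9.09, SE 0.67, adjusted p = 1.03e-06). AREx 1 was the highest and AREx 2 the lowest of the arthritic runners, and the lowest AREx library was far above the highest Sedentary library. Without AREx 1 the log2 fold change was 8.30. Mannan-only libraries averaged 466 ± 138 CPM, and the difference of AREx over Mannan-only was 0.65 (SE 0.45, adjusted p = 0.382). All 4 members of the serum amyloid and pentraxin family that could be tested were higher. The liver-type serum amyloids Saa1 (2 ± 0.914 CPM in AREx and 0.209 ± 0.156 CPM in Sedentary) and Saa2 (1.83 ± 1.32 CPM in AREx and 0.0733 ± 0.0847 CPM in Sedentary), which are near-identical copies of each other and therefore uncertain singly, rose by 3.20 and 4.52 on the log2 scale from levels close to 0. The long pentraxin Ptx3, which coats microbes and is made in inflamed tissue, had 110, 81.2, 90.3 and 85.3 CPM in AREx, against 60.2, 14.9, 23.8 and 26.6 CPM in Sedentary, and rose by 1.54 (SE 0.35, adjusted p = 0.00267). Saa4, Crp and Apcs had too few reads to be tested.

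Other acute phase and complement genes did not move as one. Of 9 further acute phase genes 4 were higher and 2 lower, or 1 lower without AREx 2, AREx 3, Sedentary 1 or Sedentary 4. Leaving out AREx 1 and AREx 4 together gave 4 lower, as did limma-voom and removal of the gene-length trend. The iron-trapping lipocalin Lcn2 had 322, 108, 157 and 71.2 CPM in AREx, against 10.2, 8.76, 6.83 and 12.6 CPM in Sedentary (log2 fold change 4.10, SE 0.48, adjusted p = 2.15e-05), and AREx 1 was again the highest library. The orosomucoid Orm1, a plasma carrier protein with near-identical copies, had 19.8, 4.65, 10.8 and 26.4 CPM in AREx, against 63.4, 49.8, 80.6 and 182 CPM in Sedentary (log2 fold change -2.60, SE 0.52, adjusted p = 0.00123). Of 17 complement genes 10 were higher and 4 lower. The receptor for the complement fragment C3a, C3ar1, had 355, 251, 203 and 235 CPM in AREx, against 56, 66.1, 63.1 and 31.3 CPM in Sedentary (log2 fold change 2.27, SE 0.25, adjusted p = 1.29e-05). The lower members were C2, Cfd (adipsin), which fat cells make, Cd55 and Cd59a, which shield cells from complement. Cd59a fell by 1.84 (SE 0.40, adjusted p = 0.00211) and Cfd fell by 2.05 (SE 0.48, adjusted p = 0.0035). Both fell further without AREx 1 and AREx 4, the libraries rich in short genes, with -2.98 for Cd59a and -3.37 for Cfd.

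Rxfp1 (ENSMUSG00000034009, chromosome 3, 79548918 to 79645187, GRCm39), the receptor for relaxin, a hormone that loosens connective tissue and lowers collagen deposition, was close to absent in AREx. It had 0.272, 0.262, 0 and 0.0571 CPM in the AREx libraries, against 9.36, 7.39, 15.1 and 9.51 CPM in the Sedentary libraries, that is 8 reads over the 4 AREx libraries and 589 over the 4 Sedentary libraries (log2 fold change -6.11, SE 0.57, adjusted p = 4.54e-06). No AREx library reached the lowest Sedentary library. Mannan-only libraries averaged 0.407 ± 0.299 CPM, with a difference of AREx over Mannan-only of -1.46 (SE 0.72, adjusted p = 0.261). The oxytocin receptor Oxtr (ENSMUSG00000049112, chromosome 6, 112450644 to 112466904) showed the same pattern at a higher level, with 0.998, 1.37, 1.01 and 1.43 CPM in the AREx libraries, against 85.4, 39.5, 68.5 and 47.4 CPM in the Sedentary libraries (log2 fold change -5.62, SE 0.34, adjusted p = 4.1e-07). Of 11 genes listed for relaxin, vasopressin and oxytocin signalling, 4 could be tested. The vasopressin receptor Avpr1a did not pass (log2 fold change 0.35, SE 0.35, adjusted p = 0.434), and the relaxin family ligand Insl6 was higher at a low level, 2.27 ± 0.393 CPM in AREx and 1.07 ± 0.151 CPM in Sedentary (log2 fold change 1.07, SE 0.25, adjusted p = 0.00335). The other relaxin receptors and ligands listed had too few reads, among them Rxfp2. Without AREx 2 or Sedentary 1, 3 genes of the list were called higher, and without each of the other AREx and Sedentary libraries 1 or 2. The filter on low counts was rerun in each of these fits, so listed genes with few reads could enter the test.

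Pnpla3 (ENSMUSG00000041653, chromosome 15, 84052038 to 84071437, GRCm39), a lipid droplet protein of fat and liver that acts on triglycerides and retinyl esters, had 0.272, 1.7, 2.52 and 1.31 CPM in the AREx libraries, against 40.3, 50.1, 50.2 and 77.4 CPM in the Sedentary libraries (log2 fold change -5.19, SE 0.43, adjusted p = 1.95e-06). The AREx libraries were all below 3 CPM and the Sedentary libraries all above 40 CPM. Mannan-only libraries averaged 4.05 ± 1.25 CPM, and the difference of AREx over Mannan-only was -1.44 (SE 0.42, adjusted p = 0.233). Its relative Pnpla2, the first lipase of fat cell triglyceride breakdown, was much more abundant per length, averaging 154 TPM in AREx and 1176 TPM in Sedentary where Pnpla3 averaged 2.85 TPM in AREx and 95.6 TPM in Sedentary, and it fell by 2.89 (SE 0.27, adjusted p = 4.99e-06). Of 9 genes tested around these lipases, 7 were lower, 1 was higher and 1 did not pass. The lower ones included Abhd5, the activator of Pnpla2, which fell by 1.18 (SE 0.15, adjusted p = 3.34e-05), its inhibitor G0s2, which fell by 2.65 (SE 0.29, adjusted p = 1.32e-05), and the next enzymes of the pathway, Lipe, which fell by 3.10 (SE 0.26, adjusted p = 2.38e-06), and Mgll, which fell by 2.87 (SE 0.37, adjusted p = 4.71e-05). The lysophospholipase gene Pnpla7 was higher, 55.9, 81.9, 54.8 and 36 CPM in AREx, against 21.1, 23.2, 20.5 and 22.4 CPM in Sedentary (log2 fold change 1.39, SE 0.23, adjusted p = 0.000281), and the related Pnpla6 did not pass (log2 fold change -0.09, SE 0.13, adjusted p = 0.604).

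**Figure D2:**
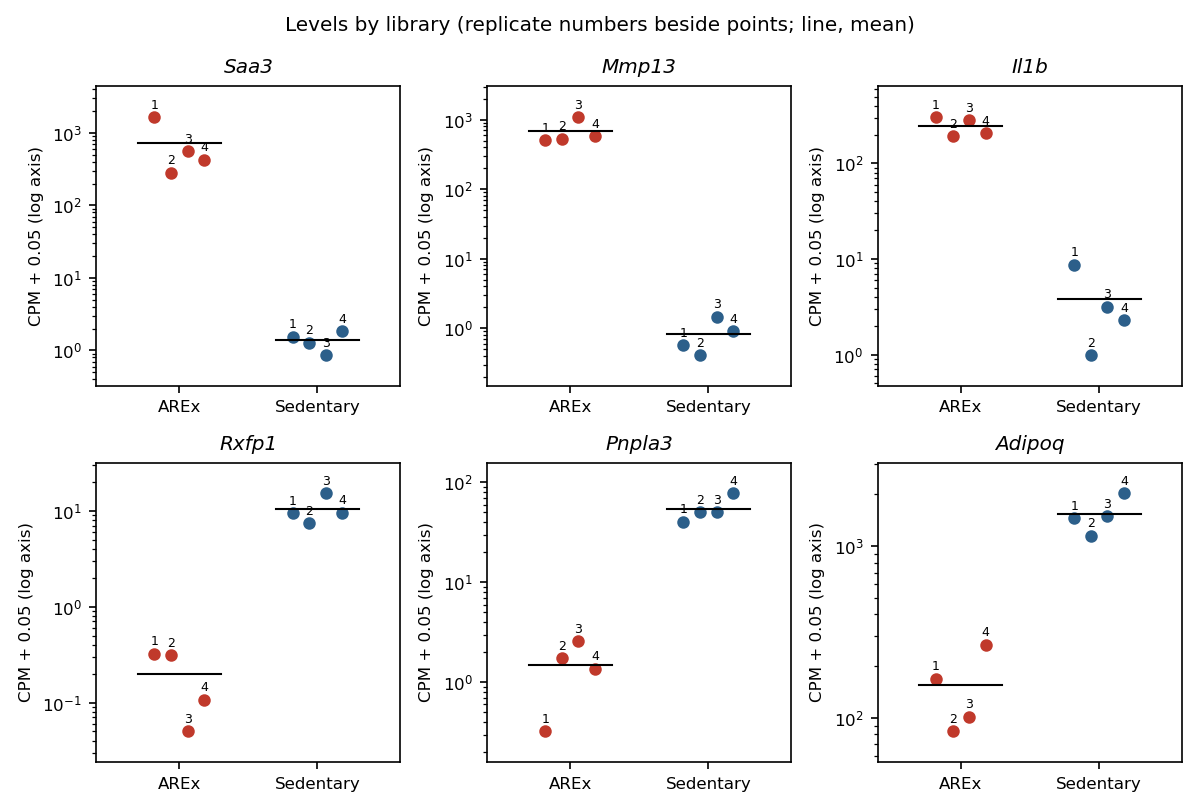
Level in CPM + 0.05 on a log axis of 6 genes in each of the 4 AREx (left, red) and 4 Sedentary (right, blue) libraries, with replicate numbers and the mean as a line. Saa3, Mmp13 and Il1b are higher and Rxfp1, Pnpla3 and Adipoq are lower in every AREx library than in any Sedentary library.

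Promoters are shown for 3 genes that rose, each from another list: Saa3 of the serum amyloid and pentraxin family, Mmp13 of the matrix metalloproteinases and Oas1a of the interferon response. Each sequence is the 250 bases before the transcription start, 5′ to 3′ on the gene's strand, from RefSeq on GRCm38.p6, an earlier build than the GRCm39 of the count table. Capitals mark matches on either strand to any of 4 motifs: TTGCNNAA, which C/EBP factors bind, GAAANNGAA, the interferon-stimulated response element (ISRE), TGANTCA, which AP-1 binds, and GGGANTTNC, which NF-kB binds. Saa3 (chr7:46715677-46715926, minus strand) held 1 ISRE match and 1 C/EBP match, in that order. Mmp13 (chr9:7272264-7272513, plus strand) held 2 overlapping ISRE matches and, close to the start, 1 AP-1 match. Oas1a (chr5:120907526-120907775, minus strand) held 2 ISRE matches that overlap each other.
Saa3: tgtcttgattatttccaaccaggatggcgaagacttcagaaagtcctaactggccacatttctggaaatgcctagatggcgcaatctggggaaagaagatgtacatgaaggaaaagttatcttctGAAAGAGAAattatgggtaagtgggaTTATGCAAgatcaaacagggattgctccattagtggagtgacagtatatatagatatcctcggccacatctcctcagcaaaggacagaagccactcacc
Mmp13: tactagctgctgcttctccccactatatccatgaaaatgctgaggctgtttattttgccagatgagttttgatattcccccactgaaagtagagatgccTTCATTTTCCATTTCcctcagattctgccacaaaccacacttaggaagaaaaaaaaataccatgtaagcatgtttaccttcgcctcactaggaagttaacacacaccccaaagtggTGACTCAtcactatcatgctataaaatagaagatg
Oas1a: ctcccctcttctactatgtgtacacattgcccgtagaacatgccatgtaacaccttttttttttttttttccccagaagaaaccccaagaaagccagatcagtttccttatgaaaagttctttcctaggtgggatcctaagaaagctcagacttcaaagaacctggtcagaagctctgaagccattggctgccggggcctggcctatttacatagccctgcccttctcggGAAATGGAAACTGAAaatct

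A promoter entry was found for 11206 of the 14278 tested genes. Of the 27025 promoters of all genes, 9.55% held the C/EBP motif, 6.87% the AP-1 motif, 7.16% the ISRE and 3.59% the NF-kB motif. Of the 11206 promoters of tested genes the shares were 7.67%, 4.72%, 6.48% and 3.88% in the same order. In genes higher by over 2-fold these shares were 11.3%, 7.73%, 10.4% and 4.94% of 1681 promoters, and in genes lower by over 2-fold 7.55%, 5.76%, 5.39% and 2.69% of 1337. The AP-1 share was thus above that of all tested genes in the higher and in the lower genes. The ISRE was in 10 of 15 promoters of the interferon response list, among them those of Isg15, Ifit1 and Stat2, the AP-1 motif was in 4, and the C/EBP and NF-kB motifs were in 0. The NF-kB motif was in 4 of 7 promoters of the neutrophil attractants and their receptors, those of Cxcl1, Cxcl2, Cxcl3 and Cxcr2, the AP-1 motif and the ISRE in 1 each and the C/EBP motif in 0. Of 4 promoters of the serum amyloid and pentraxin family, 4 held the C/EBP motif, 1 the ISRE, and 0 the AP-1 or NF-kB motif. Of 9 matrix metalloproteinase promoters, 3 held the C/EBP motif, 2 the AP-1 motif, 1 the ISRE and 0 the NF-kB motif. The ISRE and NF-kB motifs had first been searched with 1 letter more, and the shorter forms used here were chosen after those matches had been seen and fit more promoters. A match is a run of letters and not a measured binding site.

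Genes of inflammatory signalling were higher in AREx. Of 17 proinflammatory cytokine genes tested, 14 were higher and 2 lower (median log2 fold change 3.19). Il1b, the interleukin 1 beta of activated macrophages and neutrophils, had 306, 191, 282 and 206 CPM in the AREx libraries, against 8.67, 0.942, 3.12 and 2.26 CPM in the Sedentary libraries (log2 fold change 6.0, SE 0.53, adjusted p = 3.12e-06). Tnf rose by 3.98 (SE 0.41, adjusted p = 8.97e-06), and Il6, which drives the acute phase, by 5.59 (SE 0.69, adjusted p = 3.2e-05). The AREx libraries parted in Il6, with 8.44, 8.31, 40.7 and 23.8 CPM, but each was above every Sedentary library. Il36g, an epithelial member of the interleukin 1 family, had 64.2, 53.5, 32.2 and 13.2 CPM in AREx, against 0.462, 0, 0 and 0.546 CPM in Sedentary and rose by 7.24 (SE 0.77, adjusted p = 1.05e-05). These cytokines stood above the controls in all 4 AREx libraries, and Sedentary 1 was the highest control in Il1b (log2 fold change 6.87 without it). Il17a, the cytokine of the T cells that drive this model, had no read in any Sedentary library and none in AREx 1, with 1.5, 1.08 and 1.08 CPM in the other 3, which makes it at least 18.9-fold higher over the group (against a floor of 3 counts over the 4 Sedentary libraries, adjusted p = 0.00323). The alarm cytokines of barrier cells went the other way: Il33 fell by 0.53 (SE 0.18, adjusted p = 0.0285) and Tslp fell by 1.68 (SE 0.46, adjusted p = 0.00829). Il33 no longer passed when AREx 4, Sedentary 1, Sedentary 2 or Sedentary 3 was left out, with values of -0.47, -0.43, -0.52 and -0.47, nor without AREx 1 and AREx 4, at -0.49 (adjusted p = 0.0831), or AREx 2 and AREx 4, at -0.45 (adjusted p = 0.145).

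Neutrophil-attracting chemokines and their receptors were higher, with 7 of 8 genes higher and a median log2 fold change of 5.78, or 5.24 with the receptor Cxcr1, which had no Sedentary read, set at its lower bound. Cxcl5, made by stromal and epithelial cells, had 1055, 225, 400 and 312 CPM in the AREx libraries, against 3.7, 0.435, 0.371 and 0.468 CPM in the Sedentary libraries (log2 fold change 8.55, SE 0.84, adjusted p = 6.14e-06). Cxcl5 was highest in AREx 1 and, among controls, in Sedentary 1, and its log2 fold change was 7.86 without AREx 1 and 10.17 without Sedentary 1. The chemokine receptor Cxcr2 rose by 6.59 (SE 0.65, adjusted p = 6.53e-06), or 7.22 without Sedentary 1, and Csf3r, the receptor of the granulocyte growth factor, by 5.89 (SE 0.50, adjusted p = 2.45e-06). The platelet chemokine Ppbp did not pass (log2 fold change 0.34, SE 0.71, adjusted p = 0.715), and its sign turned without AREx 3, at -0.64. Of the 23 other chemokines, 18 were higher and 1, the eosinophil attractant Ccl11, was lower. Cxcl16, a transmembrane chemokine for T cells, had 405, 221, 235 and 277 CPM in AREx, against 24.3, 19.9, 24.4 and 23.9 CPM in Sedentary (log2 fold change 3.62, SE 0.20, adjusted p = 2.91e-07), and the tissue-retention chemokine Cxcl12, abundant in both groups, rose by 2.06 (SE 0.14, adjusted p = 6.66e-07). The neutrophil proteins S100a8 and the stefins followed: S100a8 had 2581, 1004, 646 and 333 CPM in AREx, against 15.3, 5.43, 5.05 and 33.8 CPM in Sedentary (log2 fold change 6.26, SE 0.83, adjusted p = 5.64e-05), or 5.48 without AREx 1 and 7.04 without Sedentary 4. In that list 7 of 8 genes were higher. The stefin cluster members Stfa2l1, Cstdc4 and Cstdc5 are near-identical copies, so their rises of 8.47, 8.21 and a 718-fold ratio (95% counting interval 245 to 3480) are uncertain singly. AREx 1 led the 3 stefin genes, and without it the log2 fold changes were 7.50, 7.45 and 8.34. Without Sedentary 1 the values of Stfa2l1 and Cstdc4 were 9.71 and 8.80, and all 3 Sedentary reads of Cstdc5 were in Sedentary 4.

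**Figure D3:**
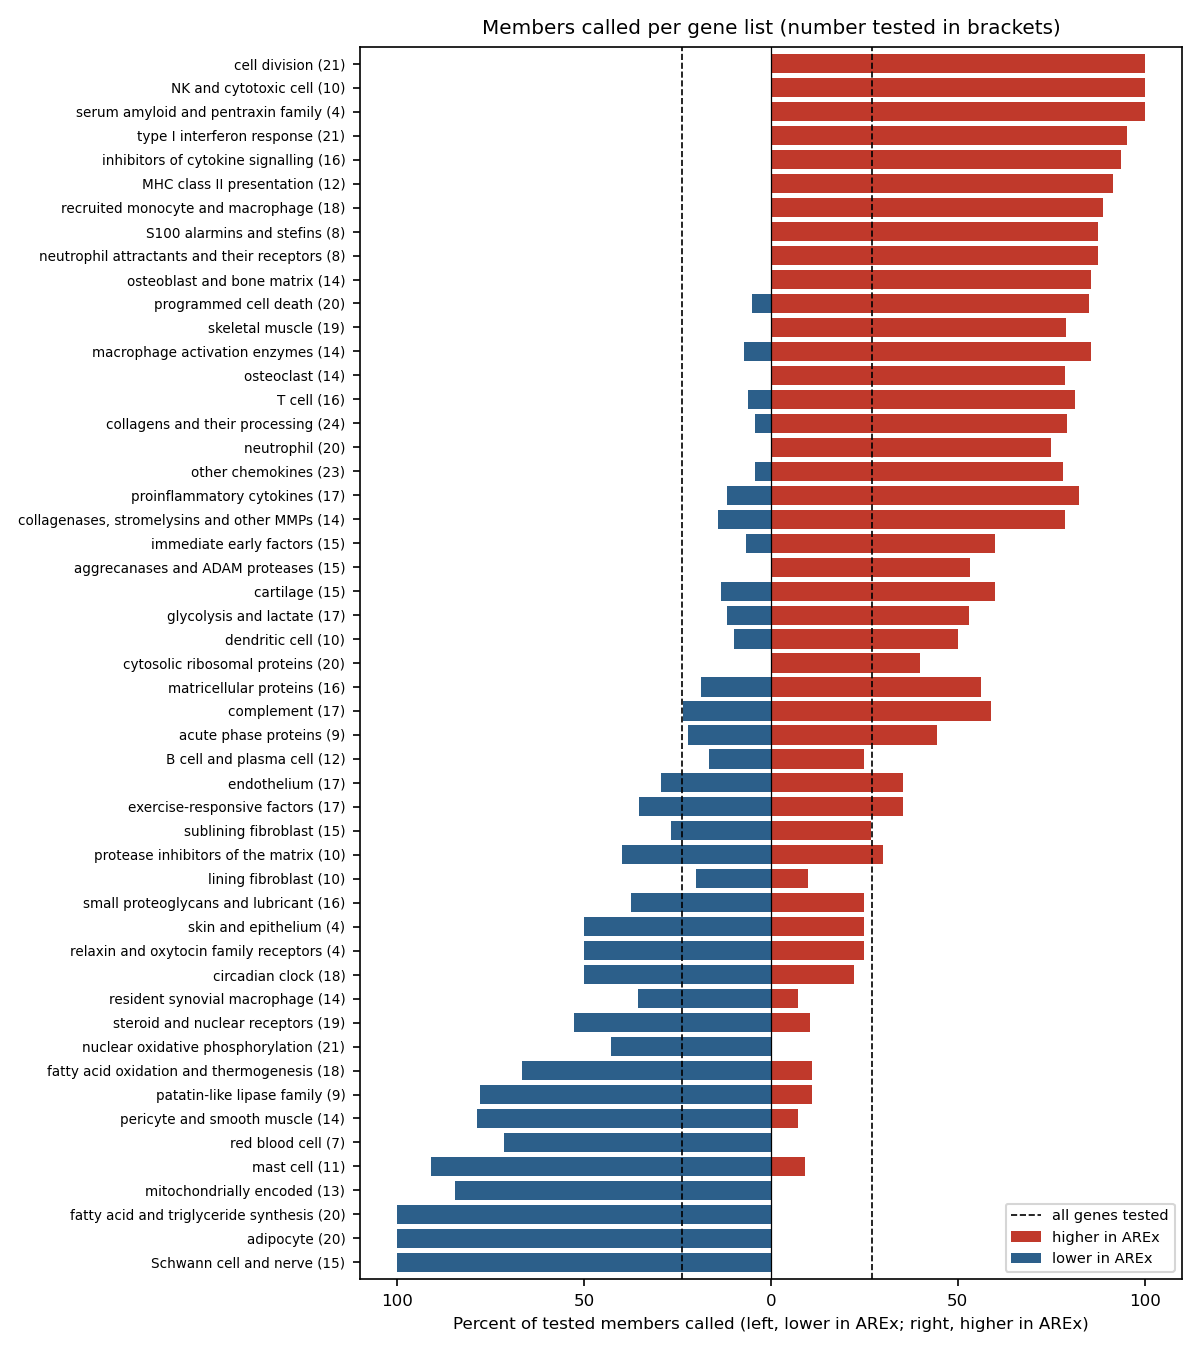
Percent of the tested members of 51 gene lists called higher (red, right) and lower (blue, left) in AREx than in Sedentary at an adjusted p under 0.05, with the number tested in brackets. Dashed lines mark the shares over all genes tested, 27% higher and 23.7% lower; cell division, NK and serum amyloid lists stand at 100% higher, and Schwann cell, adipocyte and fatty acid synthesis lists at 100% lower.

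The type I interferon response was higher in 20 of 21 genes (median 2.40), and Ifit2 was the member that did not pass. Ifi44 had 127, 60.4, 83.5 and 64.6 CPM in AREx, against 6.07, 4.2, 3.41 and 4.05 CPM in Sedentary (log2 fold change 4.23, SE 0.34, adjusted p = 1.68e-06). Oas1a, which senses double-stranded RNA, had 121, 46.8, 51.7 and 46.8 CPM in AREx, against 6.47, 3.98, 3.41 and 4.52 CPM in Sedentary (log2 fold change 3.84, SE 0.37, adjusted p = 5.14e-06). AREx 1 was the highest AREx library in both genes. Antigen presentation by MHC class II was higher in 11 of 12 genes (median 2.01). Its master regulator Ciita rose by 2.24 (SE 0.22, adjusted p = 6.07e-06) and the co-stimulator Cd80 by 2.14 (SE 0.20, adjusted p = 4.77e-06). Of 14 macrophage activation enzymes, 12 were higher, and the prostaglandin enzyme Ptges was lower. Acod1, which makes itaconate, had 106, 48.9, 70 and 67.6 CPM in AREx, against 0.0578, 0.145, 0.148 and 0.39 CPM in Sedentary (log2 fold change 8.63, SE 0.48, adjusted p = 2.92e-07), with 9.23 when Sedentary 4 was left out. Genes that restrain cytokine signalling were higher too, 15 of 16 (median 1.88). The interleukin 1 receptor antagonist Il1rn had 80.3, 79.6, 68.2 and 42.7 CPM in AREx, against 1.97, 0.797, 0.816 and 0.858 CPM in Sedentary (log2 fold change 5.88, SE 0.36, adjusted p = 4.26e-07), and the feedback inhibitor Socs3 rose by 3.25 (SE 0.19, adjusted p = 3.63e-07).

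Markers of white blood cells that enter the joint were higher. Of 20 neutrophil genes, 15 were higher and 0 lower (median 4.48). Trem1, an amplifying receptor of mature neutrophils and monocytes, had 46.3, 38.2, 37.2 and 19.6 CPM in AREx, against 0.173, 0.0724, 0.223 and 0.468 CPM in Sedentary (log2 fold change 7.22, SE 0.42, adjusted p = 3.59e-07). Ly6g, the neutrophil surface marker, had 8.35, 6.41, 4.04 and 0.914 CPM in AREx, against 0, 0, 0 and 0.702 CPM in Sedentary (log2 fold change 4.85, SE 1.05, adjusted p = 0.00207). AREx 4 was the lowest AREx library in both, and all Sedentary reads of Ly6g were in Sedentary 4. The 5 members that did not pass, Camp, Ngp, Ltf, Prtn3 and Ctsg, are granule genes of neutrophil precursors in the marrow. Not all genes of this kind failed to pass, as Elane and Mpo were called higher. The precursor enzyme Mpo, called higher (log2 fold change 5.17, SE 1.70, adjusted p = 0.0231), was high in 1 library, with 0.998, 8.64, 89.5 and 1.03 CPM in AREx, against 1.16, 0.145, 0 and 1.4 CPM in Sedentary. Without AREx 3 its log2 fold change was 2.38 (adjusted p = 0.166), and without Sedentary 2 or Sedentary 3 it was 4.83 (adjusted p = 0.0587) or 4.78 (adjusted p = 0.0591), all short of the threshold. AREx 3 was also the highest AREx library in the bone genes Ibsp and Sp7 described below, and whether marrow or bone was carried into it was not tested. Of 18 genes of recruited monocytes and macrophages, 16 were higher (median 2.86), and their summed level was 13050 to 14590 TPM in AREx and 1701 to 3366 TPM in Sedentary. The scavenger receptor Msr1 had 124, 126, 129 and 124 CPM in AREx, against 16.1, 17.1, 13.2 and 9.98 CPM in Sedentary (log2 fold change 3.15, SE 0.17, adjusted p = 2.46e-07). The yeast-sensing lectin Clec4e had 98.9, 67, 81.4 and 42 CPM in AREx, against 1.5, 0.652, 1.71 and 0.779 CPM in Sedentary (log2 fold change 5.93, SE 0.37, adjusted p = 4.39e-07).

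Genes of the macrophages that live in the quiet membrane moved differently. Of 14, 1 was higher, 5 were lower and 8 did not pass. The haemoglobin scavenger receptor Cd163 had 20.3, 31.8, 22.7 and 22.1 CPM in AREx, against 171, 177, 286 and 157 CPM in Sedentary (log2 fold change -3.03, SE 0.26, adjusted p = 2.82e-06). Retnla, a mark of alternatively activated macrophages, fell by 4.27 (SE 0.57, adjusted p = 6.16e-05), and the lectin Mgl2, another such mark, fell by 2.88 (SE 0.30, adjusted p = 9.95e-06). Lyve1 fell by 1.83 (SE 0.29, adjusted p = 0.000209), whereas Mrc1 (log2 fold change -0.23, SE 0.17, adjusted p = 0.272) and Timd4 (log2 fold change -0.20, SE 0.34, adjusted p = 0.647) did not pass. Cx3cr1, found on the barrier-forming lining macrophages, was the member that was higher, 41.2, 47.2, 31.7 and 69.9 CPM in AREx, against 15, 30.9, 8.31 and 5.54 CPM in Sedentary (log2 fold change 1.67, SE 0.43, adjusted p = 0.00655) and its annotated span overlaps 5 neighbouring genes. Without AREx 1 and AREx 4, 9 members were lower, among them Timd4 at -1.18 (adjusted p = 0.000506). Cx3cr1 no longer passed without AREx 2 and AREx 4, 1.29 (adjusted p = 0.0593), and stood at 2.28 without Sedentary 2.

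T cell genes were higher in 13 of 16 (median 2.38) and genes of NK and cytotoxic cells in 10 of 10 (median 3.01). Cd4 had 28.6, 26.4, 34.8 and 24 CPM in AREx, against 3.35, 2.25, 3.12 and 3.51 CPM in Sedentary (log2 fold change 3.21, SE 0.20, adjusted p = 4.39e-07), and Cd8a rose by 3.68 (SE 0.39, adjusted p = 9.95e-06). Zap70 itself had 7.89, 3.53, 5.27 and 5.08 CPM in AREx, against 1.1, 0.869, 1.04 and 1.4 CPM in Sedentary (log2 fold change 2.29, SE 0.26, adjusted p = 1.49e-05). Among B and plasma cell genes 3 were higher, 2 lower and 7 did not pass. Genes used by plasma cells did not move together. Mzb1, an endoplasmic reticulum protein needed to secrete antibody, had 2.9, 3.08, 4.4 and 3.08 CPM in AREx and no read in Sedentary, which makes it at least 64.4-fold higher (adjusted p = 1.15e-05), and Jchain, the joining chain of secreted antibody, had 93.3, 76.6, 102 and 152 CPM in AREx, against 7.92, 1.16, 0.816 and 11.2 CPM in Sedentary (log2 fold change 4.32, SE 0.68, adjusted p = 0.000196), or 4.96 without Sedentary 4. The B cell marker Ms4a1 (log2 fold change -0.41, SE 0.59, adjusted p = 0.591) did not pass, and its sign turned without Sedentary 1, at 0.35. Irf4 fell by 1.70 (SE 0.19, adjusted p = 1.4e-05). The plasma cell receptor Tnfrsf17 fell by 1.73 (SE 0.46, adjusted p = 0.00734), and no longer passed without AREx 2 and AREx 4, at -1.44 (adjusted p = 0.0671).

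Mast cell genes were lower in 10 of 11 (median -2.19), and the prostaglandin D synthase Hpgds, which macrophages also make, was higher. Hpgds was not called higher without AREx 2 and AREx 4. The mast cell protease Cpa3 had 27.5, 26.4, 16.6 and 30.5 CPM in AREx, against 90.8, 116, 128 and 126 CPM in Sedentary (log2 fold change -2.19, SE 0.25, adjusted p = 1.7e-05). Ms4a2, a chain of the IgE receptor, fell by 2.33 (SE 0.23, adjusted p = 6.85e-06), and the mast cell peptide receptor Mrgprb1 fell by 2.60 (SE 0.27, adjusted p = 9.53e-06). In each of these 3 genes the 4 AREx libraries lay below the 4 Sedentary libraries.

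Enzymes that cut the matrix were higher. Of 14 matrix metalloproteinases, 11 were higher and 2 lower. The collagenase Mmp13 (ENSMUSG00000050578, chromosome 9, 7272514 to 7283331, GRCm39) had 513, 535, 1096 and 581 CPM in the AREx libraries, against 0.52, 0.362, 1.41 and 0.858 CPM in the Sedentary libraries (log2 fold change 9.76, SE 0.45, adjusted p = 1.32e-07). Mannan-only libraries averaged 1267 ± 232 CPM, and the difference of AREx over Mannan-only was -0.90 (SE 0.30, adjusted p = 0.233). All 4 AREx libraries of Mmp13 were far above the controls, with AREx 3 the highest. The stromelysin Mmp3 had 1317, 874, 969 and 803 CPM in AREx, against 79, 61.4, 86.4 and 78.9 CPM in Sedentary (log2 fold change 3.70, SE 0.24, adjusted p = 5.09e-07). Of 15 aggrecanase and ADAM genes, 8 were higher and 0 lower, and this count fell to 5 when AREx 3, Sedentary 2 or Sedentary 4 was left out. The aggrecanase Adamts4 rose by 2.50 (SE 0.30, adjusted p = 2.85e-05), while Adamts5 did not pass (log2 fold change -0.36, SE 0.20, adjusted p = 0.159) except without AREx 1, at -0.60 (adjusted p = 0.00651), and without AREx 1 and AREx 4, at -0.76 (adjusted p = 0.000975). The metalloproteinase inhibitors parted: Timp1 had 1020, 317, 353 and 574 CPM in AREx, against 14.2, 26.3, 10.9 and 12.9 CPM in Sedentary (log2 fold change 5.14, SE 0.43, adjusted p = 2.04e-06). Timp3, which binds to the matrix, had 107, 143, 151 and 198 CPM in AREx, against 681, 801, 817 and 573 CPM in Sedentary (log2 fold change -2.26, SE 0.19, adjusted p = 2.09e-06). Timp4, made by fat, had 30.1, 13, 11.8 and 42.3 CPM in AREx, against 401, 263, 381 and 441 CPM in Sedentary (log2 fold change -3.93, SE 0.47, adjusted p = 2.6e-05). Each of these inhibitor genes lies within a synapsin gene, with which it shares reads in a library that does not mark strand.

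Collagens and the enzymes that shape them were higher in 19 of 24 genes (median 1.39). Col1a1, the main chain of type I collagen, had 8212, 10270, 11170 and 7562 CPM in AREx, against 1170, 1198, 1370 and 1280 CPM in Sedentary (log2 fold change 2.89, SE 0.20, adjusted p = 6.51e-07). Cthrc1, a secreted protein of matrix-making fibroblasts, had 62.4, 112, 158 and 164 CPM in AREx, against 2.72, 4.49, 2.67 and 1.4 CPM in Sedentary (log2 fold change 5.45, SE 0.39, adjusted p = 9.45e-07). In both genes every AREx library was above every Sedentary library. The basement membrane collagen Col15a1 was the member that was lower (log2 fold change -1.06, SE 0.18, adjusted p = 0.000368). Among matricellular proteins 9 were higher and 3 lower: with Tnn rose Tnc, by 4.68 (SE 0.47, adjusted p = 7.13e-06), and the Wnt-induced Ccn4, by 4.87 (SE 0.26, adjusted p = 2.91e-07), whereas Tnxb, the tenascin of resting connective tissue, fell by 2.07 (SE 0.20, adjusted p = 4.77e-06). Of the small proteoglycans Bgn rose by 1.94 (SE 0.17, adjusted p = 3.18e-06) and Podn fell by 2.30 (SE 0.16, adjusted p = 8.04e-07).

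Genes of bone resorption and bone formation were both higher. Of 14 osteoclast genes, 11 were higher and 0 lower (median 1.49). Tnfsf11 (RANKL), the signal that forms osteoclasts, had 15.1, 14, 27.2 and 18.2 CPM in AREx, against 0.578, 0.29, 0.445 and 0.546 CPM in Sedentary (log2 fold change 5.29, SE 0.28, adjusted p = 2.46e-07). The proton pump subunit Atp6v0d2 had 35.3, 46.4, 43.6 and 43.3 CPM in AREx, against 2.31, 2.39, 3.04 and 2.49 CPM in Sedentary (log2 fold change 4.04, SE 0.18, adjusted p = 1.24e-07), and the fusion protein Dcstamp rose by 3.88 (SE 0.27, adjusted p = 8.04e-07). The decoy receptor Tnfrsf11b, which blocks RANKL, did not pass (log2 fold change 0.38, SE 0.43, adjusted p = 0.488). Of 14 osteoblast genes, 12 were higher (median 2.84). The bone sialoprotein Ibsp had 42.6, 134, 297 and 65.5 CPM in AREx, against 0.231, 0, 1.11 and 0.546 CPM in Sedentary (log2 fold change 8.17, SE 0.88, adjusted p = 1.21e-05), and the regulator Runx2 rose by 2.56 (SE 0.15, adjusted p = 3.1e-07). Sp7, a factor that follows Runx2 in bone-forming cells, had 2.81, 5.96, 17.7 and 2.69 CPM in AREx, against 0.405, 0.217, 0 and 0.468 CPM in Sedentary (log2 fold change 4.67, SE 0.88, adjusted p = 0.000731). AREx 3 was the highest library in Ibsp and Sp7. Without it their log2 fold changes were 7.44 and 3.75, and without Sedentary 3 that of Ibsp was 9.01. Cartilage genes were higher in 9 of 15 and lower in 2, and Col9a2, Comp, Chad and Cnmd did not pass. The summed level of the list overlapped between the groups, at 277 to 687 TPM in AREx and 103 to 874 TPM in Sedentary. Sedentary 3, at 874 TPM, was above every AREx library. The cartilage proteoglycan Acan had 17.2, 31.5, 71.9 and 56 CPM in AREx, against 0, 0.29, 1.19 and 0.234 CPM in Sedentary (log2 fold change 6.73, SE 0.75, adjusted p = 1.58e-05), or 8.02 without Sedentary 3. The cartilage collagen Col2a1 was uneven, with 0.907, 24.6, 20.5 and 8.05 CPM in AREx, against 0.173, 0.217, 0 and 0.234 CPM in Sedentary (log2 fold change 6.36, SE 1.23, adjusted p = 0.000934), and AREx 1 stood apart from the other 3.

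The lining fibroblast genes depended on a single control library. Of 10, 1 was higher and 2 were lower, with 7 not passing. Prg4 had 6361, 10820, 12660 and 11780 CPM in AREx, against 795, 19020, 1900 and 209 CPM in Sedentary (log2 fold change 0.93, SE 0.95, adjusted p = 0.442). Sedentary 2 was above every AREx library and the other 3 Sedentary libraries were below every AREx library. The serine protease Htra4 divided in the same way, 175, 222, 180 and 338 CPM in AREx, against 30.8, 696, 62.2 and 12.9 CPM in Sedentary, and without Sedentary 2 its log2 fold change was 2.68 (adjusted p = 0.000538). Summed over the list, the level was 3086, 7938, 9120 and 7015 TPM in AREx, against 690, 12580, 1420 and 277 TPM in Sedentary. Without Sedentary 2, 7 of the 10 genes were higher in AREx and 1 was lower, and the log2 fold change of Prg4 was 3.41 (adjusted p = 0.000805). Pdpn, a surface glycoprotein of activated lining cells, was higher in every setting, 346, 239, 208 and 302 CPM in AREx, against 70.1, 68.5, 65.5 and 45.1 CPM in Sedentary (log2 fold change 2.13, SE 0.19, adjusted p = 2.72e-06). Of 15 sublining fibroblast genes, 4 were higher and 4 lower, close to the 27% and 23.7% of all genes tested. The summed level of the list was 6472 to 11310 TPM in AREx and 20240 to 28630 TPM in Sedentary. Sfrp2 rose by 2.65 (SE 0.27, adjusted p = 7.32e-06). The progenitor marker Dpp4 fell by 1.62 (SE 0.14, adjusted p = 2.11e-06) and Cd34, another, fell by 1.70 (SE 0.18, adjusted p = 9.87e-06). Without AREx 1 and AREx 4, 7 sublining genes were lower.

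Among 17 endothelial genes 6 were higher and 5 lower. Of those higher, 4 are adhesion molecules that catch white blood cells, among them Vcam1 (log2 fold change 1.69, SE 0.12, adjusted p = 9.78e-07) and Icam1 (log2 fold change 1.33, SE 0.16, adjusted p = 2.81e-05), and those lower included the clotting protein Vwf, 41, 63.7, 58.7 and 42 CPM in AREx, against 168, 195, 186 and 126 CPM in Sedentary (log2 fold change -1.72, SE 0.19, adjusted p = 1.23e-05). Pericyte and smooth muscle genes were lower in 11 of 14 (median -1.07), of which the adhesion molecule Mcam fell by 1.55 (SE 0.18, adjusted p = 1.7e-05) and the contractile gene Lmod1 fell by 2.04 (SE 0.36, adjusted p = 0.000441). The member that was higher was Des, which skeletal muscle also makes, and it was not called without AREx 2 and AREx 4. Without these libraries 3 endothelial genes were lower.

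Genes of fat cells and of fat synthesis were lower. All 20 adipocyte genes fell (median -3.20), and so did all 20 genes of fatty acid and triglyceride synthesis (median -2.15), beside a background of 23.7% lower. The summed level of the adipocyte genes was 4753 to 12830 TPM in AREx and 49330 to 81760 TPM in Sedentary. Adipoq (ENSMUSG00000022878, chromosome 16, 22965286 to 22976778, GRCm39) had 168, 83.1, 101 and 267 CPM in the AREx libraries, against 1451, 1148, 1486 and 2022 CPM in the Sedentary libraries (log2 fold change -3.30, SE 0.39, adjusted p = 2.19e-05). Lep, the hormone leptin, had 29.6, 17.3, 24 and 50.5 CPM in AREx, against 591, 491, 474 and 538 CPM in Sedentary (log2 fold change -4.11, SE 0.41, adjusted p = 7.32e-06). The droplet coat Plin4 had 136, 133, 137 and 179 CPM in AREx, against 2156, 1673, 2361 and 2328 CPM in Sedentary (log2 fold change -3.87, SE 0.27, adjusted p = 8.52e-07). AREx 4 was the highest AREx library in each of the 3 genes and still below every Sedentary library. The desaturase Scd1 had 1669, 2064, 2931 and 4444 CPM in AREx, against 39420, 30760, 35470 and 50440 CPM in Sedentary (log2 fold change -3.81, SE 0.34, adjusted p = 3.45e-06). Again no AREx library came near the controls. The lipogenic factor Srebf1 fell by 1.63 (SE 0.13, adjusted p = 1.74e-06) and, of the glycerolipid enzymes, Gpam fell by 2.07 (SE 0.15, adjusted p = 9.54e-07) and Lpin1 fell by 2.27 (SE 0.14, adjusted p = 3.96e-07). Fatty acid oxidation and thermogenesis were lower in 12 of 18 genes. The oxidation enzyme Acadm fell by 2.07 (SE 0.19, adjusted p = 4.57e-06), the thermogenic regulator Prdm16 fell by 2.46 (SE 0.25, adjusted p = 7.32e-06), and the 2 higher members were Ucp2 (log2 fold change 0.96, SE 0.17, adjusted p = 0.000526), which white blood cells also make, and Cpt1a (log2 fold change 0.91, SE 0.18, adjusted p = 0.00109).

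Genes of Schwann cells and nerve were lower in 15 of 15 (median -3.04). Sox10, the factor that defines these cells, had 2, 2.55, 1.95 and 2.74 CPM in AREx, against 23.7, 58.7, 16.7 and 46 CPM in Sedentary (log2 fold change -3.96, SE 0.50, adjusted p = 3.94e-05). Their cadherin Cdh19 had 0.817, 2.36, 1.23 and 2.74 CPM in AREx, against 42.1, 81.9, 29.4 and 23.9 CPM in Sedentary (log2 fold change -4.59, SE 0.51, adjusted p = 1.54e-05). Sedentary 2 was the highest control library in both genes, and without it Sox10 remained lower, -3.63 (adjusted p = 0.000104). The summed level of the list was 457 to 738 TPM in AREx and 2091 to 7604 TPM in Sedentary. The voltage-gated channel Kcna1, among the 12 largest falls of genes that reach 5 CPM and whose groups do not overlap, had 0.454, 1.37, 0.938 and 0.4 CPM in AREx, against 17.7, 36.6, 11.9 and 10.4 CPM in Sedentary (log2 fold change -4.57, SE 0.58, adjusted p = 3.68e-05).

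Hormone receptors were lower beyond Rxfp1 and Oxtr. Of 19 steroid and nuclear receptor genes, 10 were lower and 2 higher. The glucocorticoid receptor Nr3c1 had 139, 153, 148 and 150 CPM in AREx, against 307, 282, 293 and 288 CPM in Sedentary (log2 fold change -0.99, SE 0.10, adjusted p = 8.66e-06), the oestrogen receptor Esr1 fell by 1.92 (SE 0.19, adjusted p = 6.55e-06) and the fat cell factor Pparg fell by 2.82 (SE 0.28, adjusted p = 6.53e-06). The vitamin D receptor Vdr was higher, 23.5, 15.9, 17.6 and 11.2 CPM in AREx, against 2.95, 2.03, 5.64 and 3.04 CPM in Sedentary (log2 fold change 2.32, SE 0.31, adjusted p = 6.14e-05). Klb, the co-receptor of FGF21, had 0.363, 1.57, 2.24 and 2.57 CPM in AREx, against 35.9, 23.8, 39.3 and 63.1 CPM in Sedentary (log2 fold change -4.54, SE 0.46, adjusted p = 7.32e-06). Of other genes, the flavin oxygenase Fmo2 fell by 5.17 (SE 0.32, adjusted p = 4.39e-07), the methyltransferase Inmt fell by 4.69 (SE 0.49, adjusted p = 9.53e-06), and the ribonuclease Rnase2a, which has close paralogs, fell by 5.78 (SE 0.54, adjusted p = 4.57e-06).

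Transcripts of the mitochondrial genome took 2.87% to 3.95% of the counts in AREx and 5.9% to 7.57% in Sedentary, and 11 of 13 tested were lower. Nuclear genes of oxidative phosphorylation were lower in 9 of 21 and higher in 0, and in 14 without AREx 1 and 19 without AREx 1 and AREx 4, the libraries rich in short genes. Sdha had 206, 189, 180 and 201 CPM in AREx, against 330, 292, 349 and 464 CPM in Sedentary (log2 fold change -0.89, SE 0.14, adjusted p = 0.000211). The AREx libraries of Sdha lay close together and below every control. Glycolysis genes were higher in 9 of 17, above the 27% of all genes tested, and lower in 2, below the 23.7%. Their summed level was 2501 to 3420 TPM in AREx and 1825 to 2142 TPM in Sedentary. The lactate exporter Slc16a3 had 152, 130, 88.8 and 59.2 CPM in AREx, against 4.62, 10.4, 5.79 and 4.44 CPM in Sedentary (log2 fold change 4.09, SE 0.38, adjusted p = 4.3e-06). Ldha did not pass (log2 fold change -0.29, SE 0.17, adjusted p = 0.17) except without AREx 1 and AREx 4, at -0.47 (adjusted p = 0.0298), or with the gene-length trend removed, at -0.37 (adjusted p = 0.037), or in limma-voom, at -0.40 (adjusted p = 0.00848). Leaving out AREx 1, AREx 4 or Sedentary 2 left 1 glycolysis gene lower. All 21 cell division genes were higher (median 2.03), with Mki67 at 59.4, 73.4, 100 and 37.1 CPM in AREx, against 14.6, 11.9, 7.79 and 14.8 CPM in Sedentary (log2 fold change 2.46, SE 0.28, adjusted p = 1.75e-05). Programmed cell death genes were higher in 17 of 20. Ripk3, a kinase of necroptosis, had 40.4, 30.5, 31.8 and 31.1 CPM in AREx, against 6.88, 3.98, 3.64 and 5.77 CPM in Sedentary (log2 fold change 2.71, SE 0.19, adjusted p = 9.11e-07). Its executor Mlkl rose by 0.87 (SE 0.16, adjusted p = 0.000691), and the survival gene Bcl2 fell by 1.01 (SE 0.20, adjusted p = 0.00103). Red blood cell genes were lower in 5 of 7, and Alas2 fell by 2.38 (SE 0.20, adjusted p = 2.29e-06).

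Clock genes were lower in AREx more often than higher. Of 18 tested, 9 were lower in AREx than in Sedentary, above the 23.7% of all genes tested. The 4 that were higher were a smaller share than the 27% of all genes tested. Dbp (ENSMUSG00000059824, chromosome 7, 45354512 to 45359627, GRCm39), a transcription factor that the clock drives, had 82.7, 49.1, 42.8 and 84.2 CPM in the AREx libraries, against 11, 14.1, 10 and 9.74 CPM in the Sedentary libraries (log2 fold change 2.52, SE 0.33, adjusted p = 5.3e-05). Mannan-only libraries averaged 9.23 ± 4.53 CPM, and Dbp is the 1 gene of 14278 (0.007%) called between AREx and Mannan-only, 2.81 (SE 0.34, adjusted p = 0.0331). Ciart, a clock repressor, had 4.08, 2.62, 1.95 and 4.17 CPM in AREx, against 0.867, 1.67, 0.668 and 0.546 CPM in Sedentary (log2 fold change 1.76, SE 0.36, adjusted p = 0.00142). Arntl, the core activator BMAL1, had 6.72, 12.4, 18.1 and 9.71 CPM in AREx, against 45.5, 35.4, 45.6 and 37.6 CPM in Sedentary (log2 fold change -1.80, SE 0.24, adjusted p = 5.02e-05), and Mannan-only libraries averaged 28.5 ± 2.08 CPM. The Dbp relative Hlf, which binds the same motif, fell by 2.50 (SE 0.21, adjusted p = 1.95e-06), and the repressor Cry1 fell by 1.10 (SE 0.17, adjusted p = 0.000182) and its partner Cry2 fell by 1.36 (SE 0.14, adjusted p = 7.47e-06). Nr1d1 ranged widely in Sedentary, 95.1, 78.6, 78.2 and 100 CPM in AREx, against 62.2, 23.5, 21.4 and 90.8 CPM in Sedentary, and did not pass (log2 fold change 0.83, SE 0.43, adjusted p = 0.126) except without Sedentary 4, at 1.30 (adjusted p = 0.0221). Without AREx 2 and AREx 4, 2 clock genes were called higher. The sources used here do not give the time of day at which tissue was taken, and its part in these values was not tested.

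**Figure D4:**
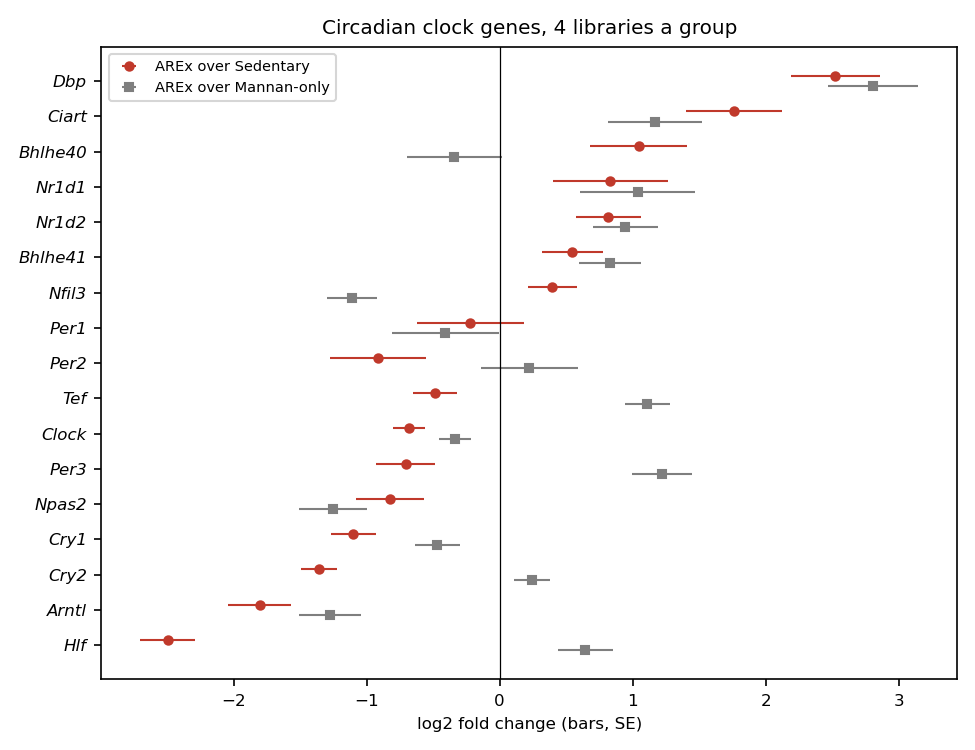
log2 fold change with its SE (bars) of circadian clock genes for AREx over Sedentary (red circles) and AREx over Mannan-only (grey squares), from 1 fit with 4 libraries a group; both comparisons share the AREx libraries. Dbp is at 2.52 over Sedentary and 2.81 over Mannan-only, and Hlf at -2.50 and 0.65.

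Genes that respond to exercise in muscle or blood were higher in 6 and lower in 6 of 17. The neurotrophin Bdnf had 3.63, 4.12, 2.67 and 5.66 CPM in AREx, against 0.289, 0.145, 0.297 and 0.39 CPM in Sedentary (log2 fold change 3.81, SE 0.38, adjusted p = 6.71e-06) and the macrophage-regulating Metrnl rose by 0.98 (SE 0.22, adjusted p = 0.00273). Ppargc1a, the inducer of mitochondrial genes, fell by 2.20 (SE 0.37, adjusted p = 0.000338), and Vegfa, the vessel growth factor, fell by 1.74 (SE 0.28, adjusted p = 0.00025). Myostatin (Mstn), which limits muscle growth and is made by muscle, had 0.0907, 1.05, 4.83 and 6.05 CPM in AREx, against 0.116, 0, 0.0742 and 0 CPM in Sedentary, a 63.1-fold ratio (95% counting interval 21.3 to 308, adjusted p = 0.00287). AREx 1 was at the Sedentary level in Mstn, whose log2 fold change was 5.06 without AREx 4 and 6.48 without Sedentary 1. For none of these 5 genes did AREx differ from Mannan-only at an adjusted p under 0.05, with values of -0.31 (SE 0.29, adjusted p = 0.519), 0.49 (SE 0.22, adjusted p = 0.248), 0.05 (SE 0.38, adjusted p = 0.949), -0.64 (SE 0.28, adjusted p = 0.244) and 0.28 (SE 0.82, adjusted p = 0.846) in the order named.

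Skeletal muscle and ribosomal protein genes were high in part of the AREx libraries. Muscle genes were called higher in 15 of 19, but their summed level was 382, 4022, 419 and 4637 TPM in AREx 1 to 4, against 240, 74.6, 174 and 193 TPM in Sedentary 1 to 4. AREx 2 and AREx 4 carried most of it, and the myosin Myh4 had 37.1, 1021, 76 and 581 CPM in AREx, against 12.4, 0.435, 0.223 and 5.85 CPM in Sedentary (log2 fold change 6.47, SE 1.79, adjusted p = 0.00914), or 5.58 without AREx 2 and 7.64 without Sedentary 1. Without AREx 2 and AREx 4 the value of Myh4 was 3.55 (adjusted p = 0.0971), 1 muscle gene was called, and over all genes 3737 were higher and 3127 lower. Ribosomal protein genes, which are short, were called higher in 8 of 20, with a summed level of 40810, 21890, 22120 and 30470 TPM in AREx, against 20420, 19350, 20060 and 16730 TPM in Sedentary. Rpl10a had 1120, 377, 375 and 625 CPM in AREx, against 368, 329, 342 and 320 CPM in Sedentary (log2 fold change 0.88, SE 0.29, adjusted p = 0.024), and its call was lost when Sedentary 2, Sedentary 3 or Sedentary 4 was left out, with values of 0.85, 0.88 and 0.85. Leaving out AREx 1 to 4 in turn gave 3, 20, 20 and 4 ribosomal protein genes called higher, and leaving out Sedentary 1 to 4 in turn gave 4, 2, 2 and 2. Without AREx 1 and AREx 4 no ribosomal protein gene was called higher, and the median log2 fold change of the list was -0.02.

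**Figure D5:**
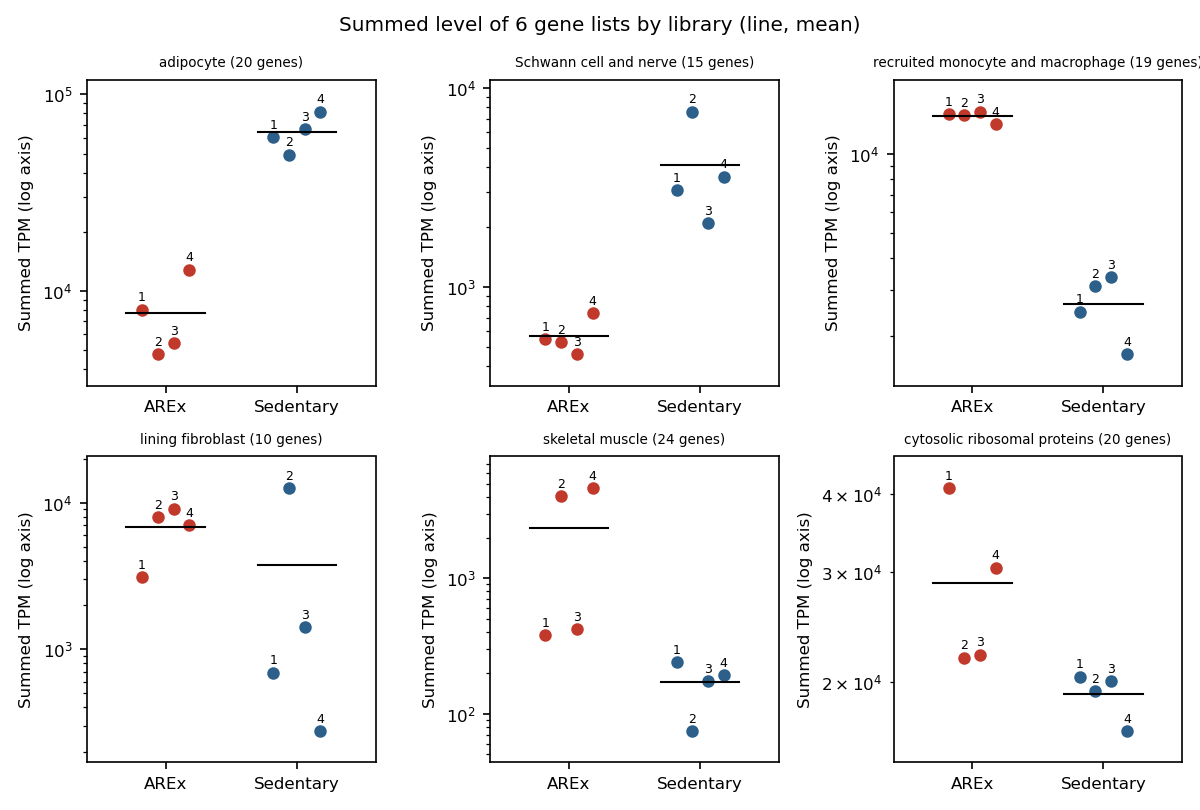
Summed level in TPM (log axis) of the genes of 6 lists in each AREx (left, red) and Sedentary (right, blue) library, with replicate numbers and the mean as a line. Fat and nerve lists are lower and the monocyte list is higher in every AREx library; lining fibroblast genes are high in Sedentary 2, muscle genes in AREx 2 and AREx 4, and ribosomal protein genes in AREx 1 and AREx 4.

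The authors' deposited table of the same comparison gave 3563 of the tested genes higher and 2988 lower at an FDR under 0.05. The same sign and call were found here for 6294 genes, which is 96.1% of the calls in the authors' deposited table and 86.8% of the calls made here, and no gene was called with opposite signs. For Saa3, Rxfp1 and Pnpla3 the authors' deposited table lists log2 fold changes of 9.09, -6.12 and -5.20.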

How the data were processed

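Polyadenylated RNA of 12 libraries was measured, 4 in each of 3 groups. The authors deposited whole-number read counts per gene, with RPKM and TPM beside them, per the file headers. The authors' own log2 fold change and p-value columns were used only where their deposited table is named. The build was GRCm39 per the submitters' processing notes, and the sources used here name no aligner or counter. A further 12 columns of per-sample values (CPM) were not used.

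Counts were fitted in edgeR 4.0.16 (R 4.3.3) by the quasi-likelihood test, with TMM scaling, filterByExpr at a minimum count of 10, 1 mean per group and all 12 libraries. Benjamini-Hochberg adjustment ran over all 14278 genes tested, and genes were called at an adjusted p under 0.05. The SE of a log2 fold change is its size over the root of F. CPM values were computed from the counts on TMM-scaled library sizes, and means carry the SD (n = 4). Counting intervals are exact at 95%, and both they and the floor of 3 counts cover counting error only. TPM is the authors' value and was used for levels between genes and for list sums. The RPKM columns were not used in any test. The fitting code was tested on simulated counts with 200 changed genes.

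Genes were named by a rule: up to 12 per direction with the largest change among called genes of at least 5 CPM whose groups do not overlap, the families of Rxfp1, Saa3 and Pnpla3, the 3 members of each of 51 lists with the smallest p, and a few fixed readouts. Other genes named beside a list, among them Orm1, Cd59a, Il33, Cxcr2, Mpo, Cx3cr1, Jchain, Adamts5, Tnc, Sp7, Htra4, Cd34, Scd1, Vdr, Arntl and Myh4, and those in the closing observations outside the rule, were chosen after their values were seen. Some listed genes are counted in their lists and not reported here singly. The comparison, its genes and its lists were chosen with earlier results of these data known, so no list is independent evidence. Alternatives used DESeq2 1.42.0 and limma 3.58.1. Promoters came from RefSeq on GRCm38.p6. The ISRE and NF-kB motifs were shortened by 1 letter after longer forms had been searched, which raises their shares among all promoters as well as in the lists, so their counts are descriptions of letters.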

Additional observations from a re-analysis of the deposited data

Results flagged for a closer look

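In 22 of 346 groups of 4 libraries looked at, 1 library lay far from the other 3, by Dixon's criterion at the 95% level. Chance flags about 1 in 20 groups. The groups were those of the 167 genes and 6 list sums whose values are given here. AREx 1 stood apart in Oas1a at 121 CPM (nearest other library 51.7 CPM), Cd80 at 10.7 CPM (nearest other library 15.7 CPM) and Ripk3 at 40.4 CPM (nearest other library 31.7 CPM). AREx 3 stood apart in Mpo at 89.5 CPM (nearest other library 8.64 CPM), Mzb1 at 4.4 CPM (nearest other library 3.08 CPM) and Mmp13 at 1100 CPM (nearest other library 581 CPM). AREx 4 stood apart in Ciita at 44.4 CPM (nearest other library 68 CPM), Plin4 at 179 CPM (nearest other library 137 CPM) and Xcr1 at 5.37 CPM (nearest other library 3.81 CPM). Sedentary 1 stood apart in Cxcl5 at 3.7 CPM (nearest other library 0.468 CPM) and Il1rn at 1.97 CPM (nearest other library 0.857 CPM). Sedentary 2 stood apart in Prg4 at 19000 CPM (nearest other library 1900 CPM), Cxcl16 at 19.9 CPM (nearest other library 23.9 CPM), Timd4 at 6.37 CPM (nearest other library 7.98 CPM), Htra4 at 695 CPM (nearest other library 62.2 CPM), Chga at 0.0724 CPM (nearest other library 0 CPM) and summed TPM of lining fibroblast at 12600 TPM (nearest other library 1420 TPM). Sedentary 3 stood apart in Cd163 at 286 CPM (nearest other library 177 CPM) and Clec9a at 4.45 CPM (nearest other library 3.9 CPM). Sedentary 4 stood apart in Cstdc5 at 0.234 CPM (nearest other library 0 CPM), Socs3 at 14.6 CPM (nearest other library 26.3 CPM) and Ly6g at 0.702 CPM (nearest other library 0 CPM). For Oas1a, Ripk3 and Mmp13 the library that stood apart was farther from the Sedentary libraries than the others of its group, and for Ciita, Cd80 and Plin4 it was nearer to them.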

How the results depend on the processing

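The counts of genes higher and lower stayed within 1.5 times of 3862 and 3391 in every alternative run. They were 3795 and 3442 with DESeq2 size factors, 3741 and 3448 with upper-quartile scaling, 3979 and 3546 without a filter on low counts, 3092 and 2739 with a filter at a mean of 5 CPM, 4040 and 3654 in the DESeq2 Wald test, 4630 and 4344 in limma-voom with quality weights, 3037 and 2888 from the 8 libraries alone, and 4132 and 3853 with the gene-length trend removed. Leaving out 1 library in turn gave 3377 to 4034 genes higher and 3049 to 3568 lower. Without AREx 1 and AREx 4 the counts were 4575 and 4321, and without AREx 2 and AREx 4 they were 3737 and 3127. Of the genes called, 53.2% were higher, and between 51.3% and 54.4% in the alternatives. No called gene whose values are given in the report or the closing observations changed sign in an alternative. Of those not called, Jund, Pnpla6, Avpr1a, Ppbp, Timd4, Htra4 and Ms4a1 changed sign in 1 or more alternatives without being called there. Deviations of AREx and Sedentary libraries with the same replicate number correlated at 0.081, 0.081, 0.038 and 0.052. Those with different numbers ran from -0.178 to 0.198, so these values cannot show whether the numbers pair libraries. With the number as a replicate block 3641 genes were higher and 3412 lower. In that fit Mpo (3.67, adjusted p = 0.0751) and Epcam (0.68, adjusted p = 0.0677) were not called, and Nr1d1 (1.02, adjusted p = 0.0436) was. Among the list counts that moved with single libraries were those of the ribosomal protein, oxidative phosphorylation and lining fibroblast lists. That of the muscle list moved when AREx 2 and AREx 4 were left out together. The ribosomal protein count was 0 from the 8 libraries alone and in limma-voom, the cause was not tested, and limma-voom also ended the calls of Mpo (5.84, adjusted p = 0.0912), Col2a1 (7.14, adjusted p = 0.0524) and Rpl10a (0.18, adjusted p = 0.23) and called Adamts5 (-0.78, adjusted p = 0.000197), Prg4 (3.14, adjusted p = 0.0182) and Timd4 (-1.11, adjusted p = 0.000611). Xcr1 was called in the DESeq2 Wald test (adjusted p = 0.0473), without Mannan-only 2 (adjusted p = 0.0453) and with the gene-length trend removed (adjusted p = 0.042). Without AREx 1 and AREx 4 the log2 fold changes of Adipoq, G0s2, Inmt, Lmod1, Mgll, Orm1, Retnla, Timp4 and Tslp were -4.05, -3.30, -5.42, -2.69, -3.77, -3.61, -5.47, -4.90 and -2.57, and those of Saa1, Timp1, Col2a1, Ibsp and Mpo were 2.52, 4.38, 7.09, 8.86 and 6.13. Without AREx 2 and AREx 4 those of Cdh19, Ppargc1a, Saa3 and Mpo were -5.40, -2.98, 9.69 and 6.03. Low counts limit the smallest levels: a gene with fewer than 3 reads in a group has a fold that depends on the prior count.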

Other observations

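Immediate early factors, transcription factor genes that switch on within minutes of a stimulus, were higher in 9 of 15 and lower in 1. Fos, a subunit of AP-1, had 102, 130, 271 and 175 CPM in AREx, against 15, 21.1, 19.2 and 8.42 CPM in Sedentary (log2 fold change 3.41, SE 0.34, adjusted p = 6.99e-06), and its partner Junb rose by 2.53 (SE 0.20, adjusted p = 1.34e-06). The AP-1 subunits Jun and Jund did not pass, with log2 fold change -0.17, SE 0.15, adjusted p = 0.383 for Jun and log2 fold change 0.05, SE 0.13, adjusted p = 0.759 for Jund. Klf4 was the member that was lower (log2 fold change -1.10, SE 0.22, adjusted p = 0.00107). Dendritic cell genes were higher in 5 of 10 and lower in 1. The migration receptor Ccr7 rose by 1.79 (SE 0.35, adjusted p = 0.00103), the marker Cd209a of monocyte-related dendritic cells fell by 1.98 (SE 0.28, adjusted p = 9.91e-05), and Clec9a and Xcr1, which mark the cross-presenting kind, did not pass, with log2 fold change -0.11, SE 0.19, adjusted p = 0.639 for Clec9a and log2 fold change 0.67, SE 0.28, adjusted p = 0.0586 for Xcr1. The count of lower dendritic cell genes was 2 without AREx 1.

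Of the skin and epithelial genes listed 4 could be tested, and the keratins Krt5 and Krt14 had too few reads. Krt10 did not pass (log2 fold change -0.40, SE 0.29, adjusted p = 0.273) except without AREx 4, at -0.71 (adjusted p = 0.0498), without AREx 1 and AREx 4, at -1.12 (adjusted p = 0.000977), or in limma-voom, at -1.04 (adjusted p = 0.000547). Trp63 fell by 2.0 (SE 0.47, adjusted p = 0.00368). Krt18 fell by 1.41 (SE 0.46, adjusted p = 0.0218), a call lost without AREx 2, at -1.14 (adjusted p = 0.0552), without Sedentary 2, at -1.23 (adjusted p = 0.0614), or without AREx 2 and AREx 4, at -1.05 (adjusted p = 0.14). Epcam was higher at 3.51 ± 1.06 CPM in AREx and 2.18 ± 0.51 CPM in Sedentary (log2 fold change 0.69, SE 0.26, adjusted p = 0.0446). Of the alternatives that could test Epcam, its call held with DESeq2 size factors, in the DESeq2 Wald test and without AREx 2, AREx 3 or Sedentary 4, and was lost in all others, with an adjusted p of up to 0.383 without AREx 1 and AREx 4.

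Some of the largest changes were in genes of no list, and Panx3, already counted in the osteoblast list, is given with them. Chga, the chromogranin A of endocrine and nerve cells, had 7.99, 5.37, 4.98 and 6.97 CPM in AREx, against 0, 0.0724, 0 and 0 CPM in Sedentary, a 359-fold ratio (95% counting interval 64.1 to 14200). The replication-linked histone gene H2bc24, which has near-identical copies, had 16.4, 5.24, 3.03 and 1.71 CPM in AREx and no Sedentary read, at least 111-fold higher against a floor of 3 counts over the Sedentary group. Panx3, a channel of bone and cartilage cells, had 1.72, 6.09, 10.2 and 1.71 CPM in AREx and no Sedentary read, at least 94.3-fold higher on the same floor. Among the falls, the fatty acid ligase gene Acsm5 had 0.635, 0.458, 0.505 and 0.514 CPM in AREx, against 11.8, 11, 15.9 and 13.3 CPM in Sedentary (log2 fold change -4.61, SE 0.38, adjusted p = 1.94e-06), and the spectrin gene Sptbn5 had 3.36, 4.52, 3.9 and 3.14 CPM in AREx, against 67.8, 163, 41.5 and 105 CPM in Sedentary (log2 fold change -4.65, SE 0.44, adjusted p = 5.05e-06).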
